A study of Saccharomyces cerevisiae with 42 samples.

Results

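The ASP3 block of Saccharomyces cerevisiae is a run of repeated genes on chromosome XII beside the ribosomal DNA. On the arrays it is covered by the 7 open reading frame probes YLR155C (ASP3-1), YLR156W, YLR157C (ASP3-2), YLR158C (ASP3-3), YLR159W, YLR160C (ASP3-4) and YLR161W. These probes were chosen by locus and by their differences between strains at 0 and at 60 min, so those differences are described here and not tested. The block makes up 7 of 6278 open reading frame probes. All 7 had a value in each of the 18 level columns, which 5443 open reading frames had, and these 5443 were tested.

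ASP3 encodes the secreted L-asparaginase of yeast, which sits at the cell wall and splits asparagine from the medium into aspartate and ammonia. Expression of ASP3 is known to rise when nitrogen is scarce. ASP1, at another locus, encodes the cytosolic asparaginase. The 4 ASP3 genes are near-identical copies, and so are YLR156W, YLR159W and YLR161W, which are uncharacterized open reading frames. YLR156W and YLR159W lie between ASP3 copies, and YLR161W lies next to ASP3-4, the last of them. A signal at 1 copy therefore cannot be told apart from RNA of its sister copies, and neither set holds independent genes.

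The series compared 3 strains on 2-colour arrays. HOG1-GFP carries a tagged Hog1, the MAP kinase of the high-osmolarity pathway. In hog1del the gene is deleted, and in HOG1-CCAAX the protein ends in a CCAAX motif, a signal for attachment to membranes. Each strain was taken at 25 °C at 0 min and after 60 min in 1 M sorbitol, with 3 biological replicates in each of the 6 groups. The strains' background, growth medium and nitrogen source are not given in the labels. The labels call the replicates biological and do not say whether they were separate cultures, so the p values measure the spread between these samples. The series has no sample held for 60 min without sorbitol, so time and shock cannot be told apart.

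A level is the log2 ratio of the sample to a common reference pool, so levels were compared between groups for a given probe and not between probes. HOG1 itself stood at −3.23 ± 0.22 (SD, n = 3) in hog1del at 0 min and at −3.70 ± 0.25 at 60 min. It stood at −0.08 ± 0.02 and 0.33 ± 0.13 in HOG1-GFP, and at −0.26 ± 0.10 and 0.34 ± 0.27 in HOG1-CCAAX, so the low values lay in the strain labelled as the deletion. The levels of replicate 1 are means of 3 technical arrays, and technical array 1 stood apart in every group. Across genes it correlated with arrays 2 and 3 of the same replicate at r = 0.39 to 0.77, while arrays 2 and 3 correlated with each other at 0.91 to 0.98. The results below are therefore also given without array 1, an alternative chosen after seeing the data. RNA was taken from whole cultures, so fewer cells that express a gene and less RNA per cell cannot be told apart.

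The ASP3 probes were lowest in unstressed HOG1-GFP and highest in stressed hog1del and HOG1-CCAAX. The level of ASP3-1 in HOG1-GFP was −1.22, −1.49 and −1.66 in replicates 1, 2 and 3 at 0 min, and −0.07, −0.43 and −0.39 at 60 min. In hog1del it was −0.25, −1.01 and −1.05 at 0 min, and 1.18, 0.90 and 1.06 at 60 min. In HOG1-CCAAX it was −0.37, −1.18 and −0.94 at 0 min, and 0.54, 1.06 and 0.83 at 60 min. Within each strain every value at 60 min lay above every value at 0 min. In order of the means, unstressed HOG1-GFP came first, the other unstressed strains next, then stressed HOG1-GFP, and stressed HOG1-CCAAX and hog1del last. The ranges of unstressed HOG1-CCAAX and hog1del overlapped with each other, and each overlapped with that of stressed HOG1-GFP. The ranges of the same 2 mutant strains under stress overlapped too.

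ASP3-2 showed the same order with less spread. Its level in HOG1-GFP was −1.62, −1.49 and −1.66 at 0 min, and −0.40, −0.55 and −0.64 at 60 min. In hog1del it was −0.87, −1.01 and −1.00 at 0 min, and 0.95, 0.68 and 0.83 at 60 min. In HOG1-CCAAX it was −0.75, −1.26 and −1.04 at 0 min, and 0.39, 0.80 and 0.62 at 60 min. Here stressed HOG1-GFP lay above both unstressed mutant strains without overlap, and below both stressed mutant strains.

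ASP3-3 stood at −1.90, −1.46 and −1.78 in HOG1-GFP at 0 min, and at −0.27, −0.29 and −0.46 at 60 min. In hog1del it stood at −1.07, −0.90 and −1.03 at 0 min, and at 1.12, 0.91 and 0.84 at 60 min. In HOG1-CCAAX it stood at −0.85, −1.12 and −0.98 at 0 min, and at 0.54, 0.85 and 0.53 at 60 min. The order of the groups was that of ASP3-2, except that the unstressed mutant strains, whose values overlapped, changed places.

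ASP3-4 was the most variable of the 4 copies at 0 min, where replicate 1 lay high in each strain. Its level in HOG1-GFP was −0.70, −1.61 and −1.73 at 0 min, and −0.11, −0.48 and −0.47 at 60 min. In hog1del it was 0.30, −0.91 and −1.01 at 0 min, and 1.09, 0.90 and 1.03 at 60 min. In HOG1-CCAAX it was −0.37, −1.28 and −0.93 at 0 min, and 0.57, 0.88 and 0.65 at 60 min. The ranges of the 3 unstressed strains overlapped in this probe, and those of stressed hog1del and HOG1-CCAAX did not.

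**Figure D1:**
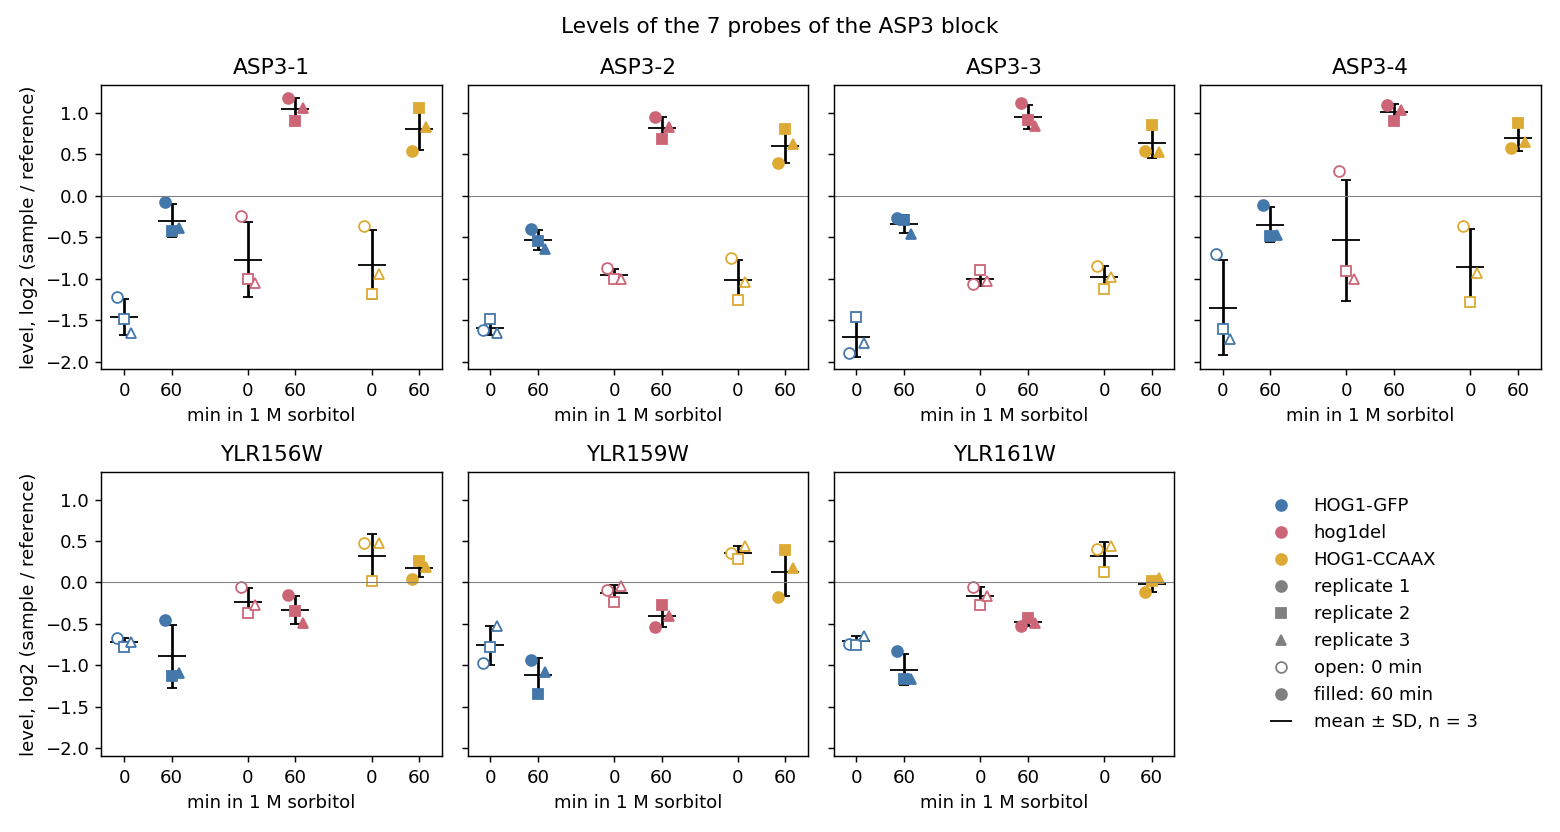
Level of each of the 7 probes (vertical axis, log2 of sample over reference) at 0 min (open symbols) and 60 min (filled symbols) in the 3 strains (colours), with the 3 replicates as separate symbols and bars at the mean ± SD (n = 3). The 4 ASP3 probes (upper row) rose with time in each strain, while YLR156W, YLR159W and YLR161W (lower row) were ordered by strain more than by time.

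The ASP3 probes rose over 60 min of sorbitol in all 3 strains. The change within a strain is not itself a contrast that chose the probes, but it is formed from the same levels. Its p values are therefore not wholly free of that choice. It was tested with limma on the 3 within-replicate changes per strain, with p values adjusted over the 5443 genes. All 4 ASP3 probes passed in each strain, while 24.0% of the genes tested were called higher in HOG1-GFP, 25.6% in hog1del and 28.1% in HOG1-CCAAX. As the copies are near-identical, 4 of 4 is not a count of 4 separate genes. The levels at 60 min and at 0 min did not overlap for any of the 4 probes in any strain, as for 47.8% of all genes in HOG1-GFP, 50.3% in hog1del and 53.4% in HOG1-CCAAX. All 12 ASP3 changes within a strain (4 probes, 3 replicates) were above 0, in each strain.

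In HOG1-GFP, ASP3-3 rose the most of the 4 copies, by 1.63, 1.17 and 1.31 on the log2 scale in replicates 1, 2 and 3, a mean of 1.37 ± 0.23 or 2.59-fold (limma, adjusted p = 1.1e-04). ASP3-1 rose by 1.16 ± 0.11 or 2.23-fold (limma, adjusted p = 0.0027) and ASP3-2 by 1.06 ± 0.15 or 2.08-fold (limma, adjusted p = 7.3e-04). ASP3-4 rose by 0.58, 1.13 and 1.26, a mean of 0.99 ± 0.36 or 1.99-fold (limma, adjusted p = 0.0163). The smallest of these 3 values was that of replicate 1. The median ASP3 change in HOG1-GFP was 1.11, beside −0.01 for all genes tested. Of the genes tested, 5.57% had a larger change than ASP3-3 in this strain, and 10.5% a larger change than ASP3-4.

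In hog1del, ASP3-3 rose by 2.18, 1.81 and 1.86, a mean of 1.95 ± 0.20 or 3.86-fold (limma, adjusted p = 2.0e-05). ASP3-1 rose by 1.81 ± 0.35 or 3.52-fold (limma, adjusted p = 1.9e-04) and ASP3-2 by 1.78 ± 0.08 or 3.44-fold (limma, adjusted p = 3.8e-05). ASP3-4 rose by 0.80, 1.81 and 2.04, a mean of 1.55 ± 0.66 or 2.92-fold (limma, adjusted p = 0.0015). The median ASP3 change was 1.80, beside −0.01 for all genes, and 2.19% of the genes tested had a larger change than ASP3-3. The rise was thus measured in the strain that lacks HOG1.

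In HOG1-CCAAX the 4 means lay close together, between 1.56 and 1.64, beside a median of 0.03 for all genes. ASP3-1 rose by 0.92, 2.24 and 1.77, a mean of 1.64 ± 0.67 or 3.12-fold (limma, adjusted p = 3.0e-04). ASP3-2 rose by 1.62 ± 0.46 or 3.07-fold (limma, adjusted p = 5.0e-05), ASP3-3 by 1.62 ± 0.31 or 3.08-fold (limma, adjusted p = 3.3e-05) and ASP3-4 by 1.56 ± 0.61 or 2.95-fold (limma, adjusted p = 0.0013). Replicate 1 gave the smallest rise in each of the 4 probes, and its technical array 1 stood apart most in this group: at 60 min it read −0.33, −0.55, −0.55 and −0.33 for ASP3-1 to ASP3-4, and arrays 2 and 3 read 0.78 to 1.22. Without array 1 the mean rises were 1.73, 1.75, 1.71 and 1.70 for ASP3-1 to ASP3-4. In HOG1-GFP they were then 1.21, 1.07, 1.39 and 1.00, and in hog1del 1.77, 1.73, 1.86 and 1.58, and all 12 calls passed.

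Leaving out a whole replicate ended 3 of these calls, 1 of them in 2 cases. ASP3-1 in HOG1-GFP did not pass without replicate 3 (adjusted p = 0.0638 by limma). ASP3-4 in HOG1-GFP did not pass without replicate 2 (adjusted p = 0.1109 by limma) or without replicate 3 (adjusted p = 0.1643 by limma), nor in hog1del without replicate 3 (adjusted p = 0.0530 by limma).

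**Figure D2:**
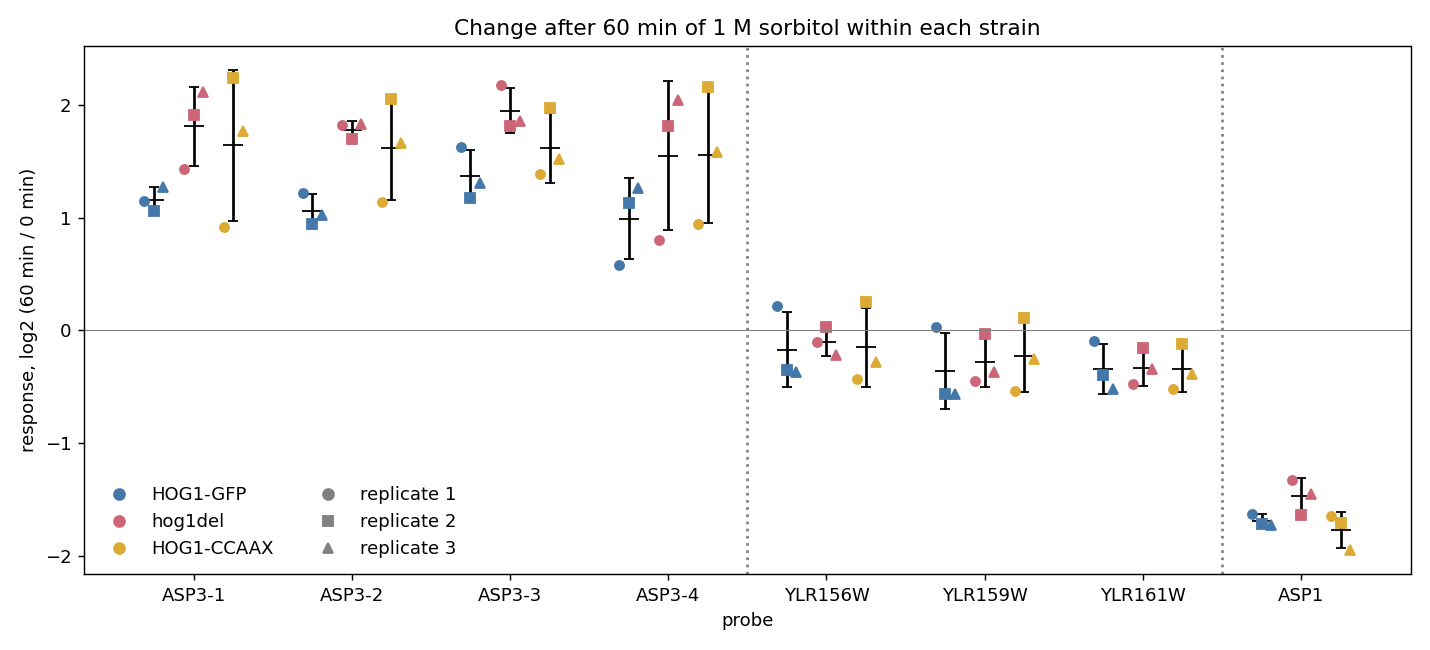
Change within each strain (vertical axis, log2 of 60 min over 0 min) for the 4 ASP3 probes, the other 3 probes of the block and ASP1, with replicates as symbols, strains as colours and bars at the mean ± SD (n = 3). The ASP3 means lie between 0.99 and 1.95, those of the other 3 probes between −0.36 and −0.10, and those of ASP1 between −1.77 and −1.47.

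How far the ASP3 rise differed between strains follows from the strain differences at 0 and 60 min that chose the probes, so it is described without a test. The response of hog1del exceeded that of HOG1-GFP by 0.56 to 0.72 over the 4 probes, and all 12 within-replicate differences were above 0. As the probes are near-identical copies, these are not 12 independent values. The response of HOG1-CCAAX exceeded that of HOG1-GFP by 0.25 to 0.57, with 9 of 12 differences above 0. All 3 negative differences came from replicate 1. Without technical array 1 the mean difference of hog1del was 0.55, 0.66, 0.47 and 0.58 for ASP3-1 to ASP3-4, and that of ASP3-1 in replicate 1 was −0.04. The mean difference of HOG1-CCAAX was then 0.52, 0.68, 0.32 and 0.70. Both comparisons use the same HOG1-GFP samples.

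YLR156W, YLR159W and YLR161W did not follow the ASP3 genes beside them. YLR156W stood at −0.67, −0.78 and −0.72 in HOG1-GFP at 0 min, and at −0.45, −1.13 and −1.09 at 60 min. In hog1del it stood at −0.05, −0.37 and −0.27, and then at −0.15, −0.34 and −0.49. In HOG1-CCAAX it stood at 0.47, 0.02 and 0.47, and then at 0.04, 0.26 and 0.19. HOG1-GFP was lowest, hog1del intermediate and HOG1-CCAAX highest, and within each strain the 2 times overlapped.

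YLR159W stood at −0.97, −0.78 and −0.52 in HOG1-GFP at 0 min, and at −0.94, −1.35 and −1.08 at 60 min. In hog1del it stood at −0.09, −0.24 and −0.04, and then at −0.54, −0.27 and −0.41. In HOG1-CCAAX it stood at 0.36, 0.28 and 0.44, and then at −0.18, 0.39 and 0.18. The strains came in the same order, and the values at 60 min lay below those at 0 min without overlap in hog1del only.

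YLR161W stood at −0.74, −0.76 and −0.64 in HOG1-GFP at 0 min, and at −0.83, −1.17 and −1.16 at 60 min. In hog1del it stood at −0.05, −0.27 and −0.16, and then at −0.53, −0.43 and −0.49. In HOG1-CCAAX it stood at 0.40, 0.13 and 0.44, and then at −0.12, 0.02 and 0.05. In this probe the values at 60 min lay below those at 0 min without overlap in each strain.

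None of the 3 probes passed limma's test of the change over 60 min in any strain. Of the genes tested, 22.7%, 27.4% and 26.1% were called lower in HOG1-GFP, hog1del and HOG1-CCAAX. At an unadjusted p under 0.05, 1 of 3 was lower in each strain, beside 27%, 30.7% and 28.9% of the genes tested. The mean changes in HOG1-GFP were −0.17 ± 0.33, −0.36 ± 0.34 and −0.34 ± 0.22 for YLR156W, YLR159W and YLR161W. In hog1del they were −0.10 ± 0.13, −0.28 ± 0.22 and −0.33 ± 0.16, and in HOG1-CCAAX −0.15 ± 0.35, −0.23 ± 0.32 and −0.34 ± 0.21. With the replicate number as a block, YLR161W was called lower in HOG1-GFP, hog1del and HOG1-CCAAX (limma, adjusted p = 0.0293, 0.0325 and 0.0259), and the share of genes called lower rose to 32.6%, 35.5% and 33.6%. The result in HOG1-GFP depended on replicate 1. Without it, YLR156W, YLR159W and YLR161W were called lower there, at −0.36, −0.56 and −0.46 (limma, adjusted p = 0.0397, 0.0037 and 0.0052). The calls over all genes in this strain, in either direction, also rose without replicate 1, from 2545 to 3961. The 3 calls are thus not read as particular to these probes.

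The strain differences that chose the block had a different shape in its 2 sets of probes. For the ASP3 probes, hog1del exceeded HOG1-GFP by 0.63 to 0.80 at 0 min and by 1.29 to 1.36 at 60 min. HOG1-CCAAX exceeded HOG1-GFP by 0.49 to 0.73 and by 0.98 to 1.13. HOG1-CCAAX minus hog1del ran from −0.32 to 0.01 at 0 min and from −0.31 to −0.22 at 60 min. All 12 ASP3 differences of each mutant strain from HOG1-GFP were above 0, at both times.

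For YLR156W, YLR159W and YLR161W, hog1del exceeded HOG1-GFP by 0.49 to 0.63 at 0 min and by 0.56 to 0.71 at 60 min. HOG1-CCAAX exceeded HOG1-GFP by 1.04 to 1.12 and by 1.03 to 1.25. HOG1-CCAAX also exceeded hog1del, by 0.48 to 0.55 and by 0.46 to 0.54, with all 9 values (3 near-identical copies, 3 replicates) above 0 at both times. The differences of these 3 probes were thus of similar size at both times, whereas those of the ASP3 probes from HOG1-GFP were larger at 60 min. The ASP3 means of HOG1-CCAAX lay below those of hog1del at 60 min, with 10 of 12 differences below 0, and the groups overlapped in 3 of the 4 probes. Replicate 2 gave 0.16 for ASP3-1 and 0.11 for ASP3-2. Without technical array 1 these means shrank to −0.13, −0.07, −0.13 and −0.19 for ASP3-1 to ASP3-4. These 3 comparisons share samples in pairs.

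Groups that did not overlap are given for the same contrasts as a description. At 0 min, 6 of 7 probes did not overlap between hog1del and HOG1-GFP, 6 of 7 between HOG1-CCAAX and HOG1-GFP, and 3 of 7 between HOG1-CCAAX and hog1del. Of all genes tested, 6.26%, 4.63% and 6.12% did not overlap in these comparisons. At 60 min the counts were 6, 7 and 4 of 7, and the shares of all genes 27.0%, 17.9% and 20.0%. Nothing is read from these counts, since the rule used the same contrasts. The median member difference between hog1del and HOG1-GFP was 0.63 at 0 min and 1.29 at 60 min, beside 0.00 and −0.02 for all genes. Between HOG1-CCAAX and HOG1-GFP it was 0.73 and 1.06, beside 0.01 and 0.02. Without technical array 1 these medians were 0.69, 1.26, 0.81 and 1.15.

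**Figure D3:**
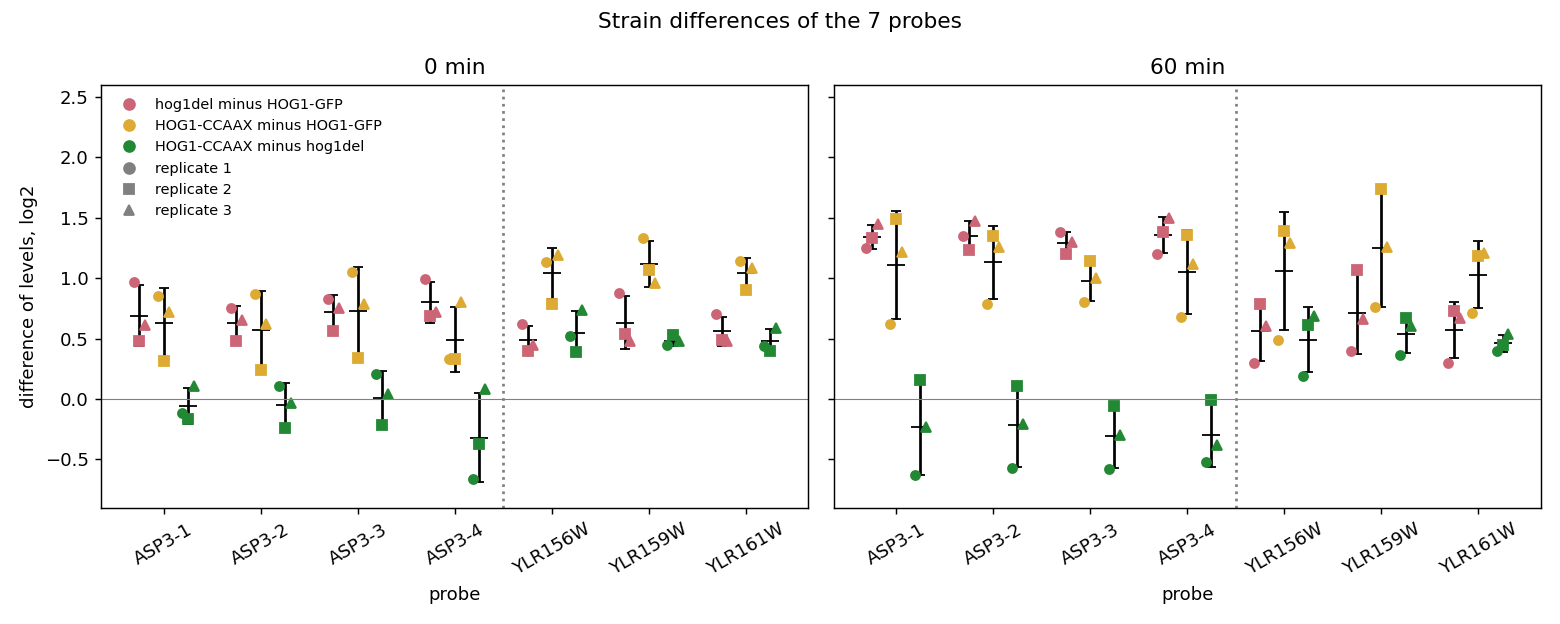
Difference of levels between strains (vertical axis, log2) for the 7 probes at 0 min (left) and 60 min (right), with replicates as symbols, the 3 strain pairs as colours and bars at the mean ± SD (n = 3). HOG1-CCAAX minus hog1del (green) lies between −0.66 and 0.21 for the ASP3 probes at 0 min and above 0 for the other 3 probes at both times.

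The split of the block into 2 patterns also showed in the likeness of the probes over the 18 level columns, after the mean of each replicate was taken off. Pearson's r was 0.94 to 0.99 among the ASP3 probes and 0.96 to 0.98 among YLR156W, YLR159W and YLR161W. Between the 2 sets it was 0.04 to 0.27 over 12 pairs. The columns share the reference pool and, within a replicate, the table, and near-identical copies share RNA, so these values are descriptions.

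The array carries 14 further probes named for loci from YLR154 to YLR162, which had values in replicates 2 and 3 only. Of these, the probe YLR157W-A and the probe YLR157W-C, names that RefSeq lists as older names of YLR157W-D and YLR157W-E, followed YLR156W, YLR159W and YLR161W, both with r = 0.99 over 12 columns. In YLR157W-A, HOG1-CCAAX minus HOG1-GFP was 0.96 and 1.03 at 0 min in replicates 2 and 3, and 1.40 and 1.10 at 60 min. The probe YLR162W-A, the locus of RRT15 at the far end of the block, correlated with the ASP3 probes at r = 0.90 over 11 columns. Its change in HOG1-GFP was 0.75 and 1.15, and in hog1del 0.79 and 1.59. In YLR162W-A, HOG1-CCAAX minus HOG1-GFP at 60 min was 0.10 and 0.20, where the medians of the ASP3 probes were 1.35 and 1.17, so it did not share that difference. A second probe named for YLR155C correlated with the 2 sets at 0.71 and 0.74. Its change over 60 min was −0.11 and 0.10 in HOG1-GFP and 0.38 and 0.77 in hog1del, below that of the ASP3-1 probe in each of these 4 values. In HOG1-CCAAX it changed by 0.27 and 0.11, where the ASP3-1 probe changed by 2.24 and 1.77. The rise of the 4 ASP3 probes was thus not matched in size by this second probe in any strain.

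ASP1, the cytosolic asparaginase, moved opposite to the ASP3 probes. Its level in HOG1-GFP was 1.23, 0.52 and 0.60 at 0 min, and −0.40, −1.20 and −1.13 at 60 min, with no overlap. The change was −1.69 ± 0.06 or 3.23-fold lower in HOG1-GFP, −1.47 ± 0.16 or 2.77-fold lower in hog1del and −1.77 ± 0.16 or 3.41-fold lower in HOG1-CCAAX (limma, adjusted p = 1.2e-05, 2.0e-05 and 6.0e-06). No strain difference of ASP1 passed at 0 or 60 min; the means lay between −0.26 and 0.20. The 4 ASP3 probes thus rose in the same cultures in which ASP1 fell.

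Of 12 genes of asparagine and aspartate metabolism, 2 rose and 5 fell in HOG1-GFP, 3 rose and 4 fell in hog1del, and 3 rose and 5 fell in HOG1-CCAAX. Of all genes tested, 24.0% rose and 22.7% fell in HOG1-GFP, 25.6% and 27.4% in hog1del, and 28.1% and 26.1% in HOG1-CCAAX, so that 3 of 12 rising was near the share of all genes. Their median changes were −0.29, −0.25 and −0.18, beside −0.01, −0.01 and 0.03 for all genes. ASN1, an asparagine synthetase, fell by 1.31 in HOG1-GFP and by 1.14 in HOG1-CCAAX (limma, adjusted p = 1.3e-04 and 2.2e-04). GLT1, the glutamate synthase, fell by 1.00 in hog1del and by 1.18 in HOG1-CCAAX (limma, adjusted p = 4.2e-04 and 1.4e-04). DED81, the cytosolic asparaginyl-tRNA synthetase, fell by 1.10 in HOG1-GFP (limma, adjusted p = 0.0017), and AAT2, the cytosolic aspartate aminotransferase, rose by 0.97 in hog1del (limma, adjusted p = 1.3e-04). These genes also passed, in the same direction, in the strains not named for them. ASN1 changed by −0.85 in hog1del and GLT1 by −1.05 in HOG1-GFP (limma, adjusted p = 0.0014 and 3.6e-04). DED81 changed by −0.56 in hog1del and −0.96 in HOG1-CCAAX (limma, adjusted p = 0.0381 and 0.0031). AAT2 changed by 0.47 in HOG1-GFP and 0.78 in HOG1-CCAAX (limma, adjusted p = 0.0080 and 3.9e-04). Some of these calls did not pass when a replicate was left out.

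Of 33 genes regulated by nitrogen supply or regulating it, 31 were tested. In HOG1-GFP 10 rose and 5 fell, in hog1del 13 rose and 3 fell, and in HOG1-CCAAX 13 rose and 3 fell. These counts stand beside the same shares of all genes, in which rises and falls were about as frequent. Their median changes were 0.18, 0.47 and 0.35, beside −0.01, −0.01 and 0.03 for all genes. CAR1, the arginase, rose by 2.72 ± 0.52 in HOG1-GFP, by 3.68 ± 0.46 in hog1del and by 3.39 ± 0.25 in HOG1-CCAAX (limma, adjusted p = 2.4e-05, 7.7e-06 and 6.0e-06). In the same order of strains, CAR2, the ornithine aminotransferase, rose by 2.33 ± 0.58, 2.81 ± 0.82 and 2.71 ± 0.16 (limma, adjusted p = 2.2e-04, 7.1e-05 and 6.9e-05). PUT4, the proline permease, rose by 2.01 ± 0.22, 1.66 ± 0.75 and 2.03 ± 0.74 (limma, adjusted p = 6.7e-04, 0.0017 and 4.9e-04), and its rise in hog1del did not pass without replicate 3 (adjusted p = 0.0533 by limma).

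Unstressed, no gene of either list passed in any of the 3 strain comparisons, by limma with the replicate block. At an unadjusted p under 0.05, 2 of 12 asparagine genes were lower in hog1del than in HOG1-GFP and 0 differed in the other 2 comparisons. Of the 31 nitrogen genes, 2 were then higher and 1 lower, 2 higher and 4 lower, and 0 higher and 6 lower. Of all genes, 6.12% were higher and 4.83% lower at that p in hog1del against HOG1-GFP, 5.03% and 3.55% in HOG1-CCAAX against HOG1-GFP, and 5.22% and 6.89% in HOG1-CCAAX against hog1del. After adjustment, 0.937%, 0.276% and 0.276% passed in hog1del against HOG1-GFP, HOG1-CCAAX against HOG1-GFP and HOG1-CCAAX against hog1del. The largest mean difference in either list at 0 min was that of PUT4, which was −0.60 ± 0.24 in hog1del against HOG1-GFP and −0.57 ± 0.48 in HOG1-CCAAX against HOG1-GFP (limma, adjusted p = 0.1058 and 0.2079).

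Under stress, 10 nitrogen genes were higher and 1 lower in hog1del than in HOG1-GFP, where 27.2% of all genes passed. PUT1, the proline oxidase, was higher by 1.65, GLN1, the glutamine synthetase, by 1.27 and UGA3, an activator of the genes for GABA use, by 1.03 (limma, adjusted p = 8.0e-05, 8.9e-05 and 7.5e-04). PUT4, named here after its value was seen, was the gene that was lower, at −0.94 (limma, adjusted p = 0.0033). In HOG1-CCAAX against HOG1-GFP 5 were higher and 0 lower, where 11.4% of all genes passed. At an unadjusted p under 0.05, 12 were higher and 2 lower, beside 15.5% and 11.9% of all genes. The 5 were led by PUT1 at 1.27, GLN1 at 1.21 and AGP1, an amino acid permease, at 0.63 (limma, adjusted p = 0.0011, 3.2e-04 and 0.0244). In HOG1-CCAAX against hog1del 2 were lower, where 11.2% passed: UGA3 at −0.52 and CAR1 at −0.48 (limma, adjusted p = 0.0439 and 0.0375). Neither passed without technical array 1 (adjusted p = 0.0566 and 0.0726 by limma). Of the asparagine genes, DIP5, a permease for acidic amino acids, was higher by 1.07 in hog1del and by 0.77 in HOG1-CCAAX than in HOG1-GFP (limma, adjusted p = 1.7e-04 and 0.0030). ASN1 was higher by 0.47 in hog1del (limma, adjusted p = 0.0377), which did not pass without technical array 1 (adjusted p = 0.0525 by limma). Without the replicate block, 4 nitrogen genes were higher in hog1del and 1 in HOG1-CCAAX than in HOG1-GFP, and 0 were lower in any comparison. PUT4 in hog1del (adjusted p = 0.0597 by limma), GLN1 (0.0517), AGP1 (0.2594) and DIP5 (0.1951) in HOG1-CCAAX, and ASN1 in hog1del (0.1659) then did not pass, nor did UGA3 (0.1938) and CAR1 (0.5827) in HOG1-CCAAX against hog1del. Leaving out replicate 2 or replicate 3 also ended the calls of AGP1 (adjusted p = 0.2027 and 0.2633 by limma), ASN1 (0.3434 and 0.1353), UGA3 (0.1704 and 0.2986) and CAR1 (0.2932 and 0.2309), and leaving out replicate 3 that of DIP5 in HOG1-CCAAX (0.0767).

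The mean differences from HOG1-GFP at 0 min were smaller in the 8 neighbours tested than in the block. The block was chosen by such differences and its neighbours were not, so nothing is read from this. The neighbours are the 5 open reading frames on each side by number, leaving out names with a suffix such as YLR154W-A. Of these 10, 8 were tested, and none passed in any strain comparison at 0 min by limma. At an unadjusted p under 0.05, 2 were lower in hog1del than in HOG1-GFP, 0 differed between HOG1-CCAAX and HOG1-GFP, and 2 were higher in HOG1-CCAAX than in hog1del. The shares of all genes at 0 min are those given above for the gene lists. The neighbours' mean differences at 0 min ran from −0.32 to 0.11 in hog1del against HOG1-GFP and from −0.08 to 0.24 in HOG1-CCAAX against HOG1-GFP. In HOG1-CCAAX against hog1del they ran from −0.10 to 0.49, the highest being that of ACS2. The suffixed YLR154 probes are not in this set and have no value in replicate 1. Their hog1del minus HOG1-GFP at 0 min was 0.74 in YLR154C-G, 0.95 in YLR154W-B and 0.53 in YLR154W-C. It was 0.70 in YLR154W-A (replicate 3 only), 0.09 in YLR154W-E and 0.14 in YLR154W-F. The block's lowest mean there was 0.49. Their HOG1-CCAAX minus HOG1-GFP lay between 0.27 and 0.51. At 60 min no neighbour passed in hog1del against HOG1-GFP by limma, where 27.2% of all genes passed. At an unadjusted p under 0.05, 1 neighbour was higher, beside 19.5% of all genes. PCD1, a nudix hydrolase of peroxisomes, and YLR152C, which is uncharacterized, were higher in HOG1-CCAAX than in HOG1-GFP, by 0.71 and 0.76 (limma, adjusted p = 0.0067 and 0.0035). They were also higher than in hog1del, by 0.61 and 0.90 (limma, adjusted p = 0.0185 and 0.0021). Without replicate 3 none of these 4 differences passed (adjusted p = 0.0889, 0.0688, 0.1083 and 0.0572 by limma, for PCD1 and YLR152C against HOG1-GFP and then against hog1del). Without the replicate block those of PCD1 did not pass (0.0576 and 0.1358), and without replicate 2 those of PCD1 (0.0918 and 0.2483) and that of YLR152C against hog1del (0.0536) did not. RNH203, a subunit of ribonuclease H2 and the last gene tested before the block, fell over 60 min by 0.58 in HOG1-GFP, by 0.90 in hog1del and by 0.75 in HOG1-CCAAX (limma, adjusted p = 0.0188, 0.0019 and 0.0045). The fall of RNH203 did not pass in HOG1-GFP without replicate 2 or replicate 3 (adjusted p = 0.2289 and 0.2557 by limma), nor in HOG1-CCAAX without replicate 2 (0.0760). Other neighbours rose. In the same order of strains, SHH4 rose by 2.21, 2.01 and 2.38 (limma, adjusted p = 2.4e-05, 3.7e-05 and 1.1e-05). PUS5 rose by 0.92, 1.25 and 1.21 (limma, adjusted p = 5.2e-04, 8.4e-05 and 8.0e-05). Of the 8 neighbours, 2 rose and 2 fell in HOG1-GFP, 3 and 1 in hog1del, and 6 and 2 in HOG1-CCAAX. The shares of all genes are those given above for the gene lists.

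**Figure D4:**
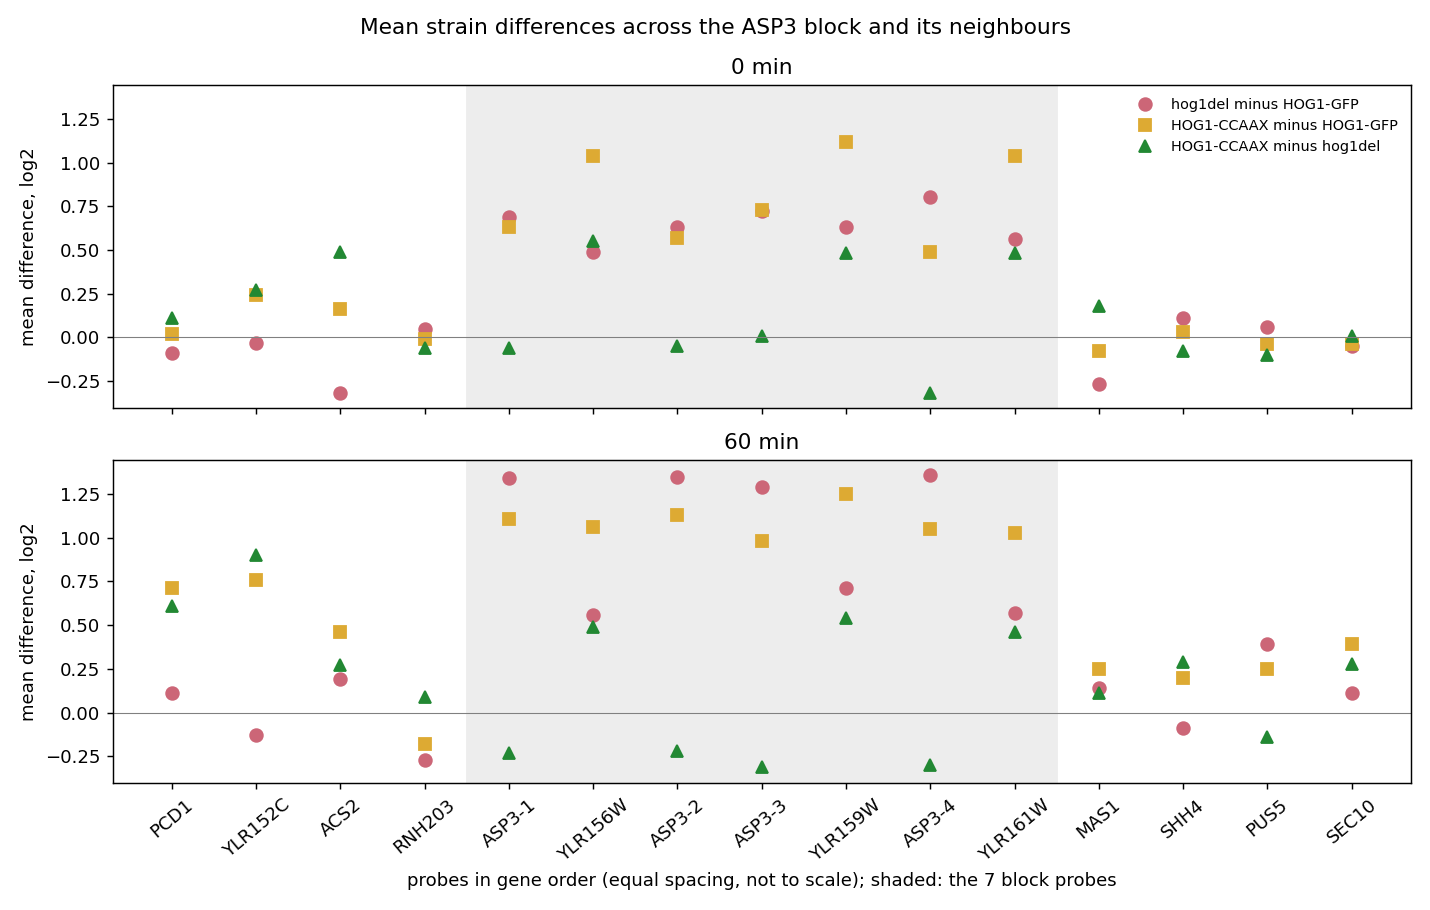
Mean strain differences (vertical axis, log2) at 0 min (upper) and 60 min (lower) for the 7 probes of the block (shaded) and the 8 neighbours tested, in gene order with equal spacing. The further probes of the locus, with values in replicates 2 and 3 only, are not shown. At 0 min the differences of the 8 neighbours from HOG1-GFP lie between −0.32 and 0.24, and those of the block between 0.49 and 1.12. The block was chosen by such differences, so nothing is read from this.

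The gene whose levels were most like the mean of the 7 probes, by Pearson's r over 18 columns, was ERG7, the lanosterol synthase (r = 0.914). PUG1 followed at 0.903, TPO1, a polyamine transporter, at 0.901, MSA2, a regulator of genes of the G1 phase, at 0.899 and DAP1, a haem-binding protein of sterol synthesis, at 0.893. As the block holds 2 patterns, the sets were also compared on their own, a choice made after their values were seen. PUG1, a plasma membrane transporter of protoporphyrin and haem, was most like the ASP3 mean (r = 0.986), and SCO1, a copper chaperone of cytochrome oxidase, was most like the mean of the other 3 probes (r = 0.842). PUG1 changed by 1.41, 1.06 and 1.02 in HOG1-GFP, by 1.71, 2.18 and 1.97 in hog1del and by 1.27, 2.37 and 1.77 in HOG1-CCAAX. Its difference of hog1del from HOG1-GFP was 0.74 ± 0.21 at 0 min and 1.52 ± 0.36 at 60 min.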

How the data were processed

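Transcripts of 18 samples (3 strains, 2 times, 3 biological replicates) were measured on arrays with 2 colours, in 42 records: each group has 3 technical arrays in replicate 1 and 2 in replicates 2 and 3, the latter duplicate features of a slide per the labels. The deposited level tables hold log2 ratios of the Cy5 reference over the Cy3 sample, averaged over technical arrays by the authors, per the labels. The deposited change tables hold log2 at 60 min minus 0 min, and changes formed from the levels equalled them to within 5.0e-07. The deposited log2 value of each technical array runs sample over reference. For scaling, background, spot filters and build, the sources used here give nothing. The sign of the level tables was reversed, so that a transcript richer in the sample has a positive value. The lowest correlation between level columns was −0.45, and the direction was kept because the labels give both dyes. Every sample column of the files was mapped, and 0 others were used. There is no depth in counts, and the number of arrays limits the precision.

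Changes within a strain were tested two-sided in R 4.3.3 by lmFit and eBayes of limma 3.58.1 on 9 within-replicate changes with strain as the only term. Levels were compared per time over 9 columns with replicate as the block. The p values were adjusted after Benjamini and Hochberg over 5443 genes, and an adjusted p under 0.05 passed. The procedure was tested on simulated data. Folds are powers of 2 of mean log2 values. Deviations of equal replicate number correlated at 0.44 to 0.82 for changes, 0.74 to 0.91 for levels at 0 min and 0.46 to 0.80 at 60 min, so equal numbers were treated as pairs. The labels do not say what a number shares, and unequal numbers reached 0.61, 0.81 and 0.68, so these correlations do not settle the pairing. Symbols and neighbours came from the RefSeq annotation R64, in which 5804 of 6278 names matched.

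The members, the 2 gene lists and the tests were chosen with earlier results of these data known. The text names all members, HOG1, ASP1 and up to 3 genes of each list per comparison with the largest mean difference. It also draws on the 5 open reading frames on each side by number, without suffixed names, the 5 genes most like the mean of the members, and the other probes of the locus. Sequences were not used here. Alternatives were the replicate block, centring, quantile normalization, at least 2 replicates per strain, the median of technical arrays, each strain alone, each replicate left out and, added after seeing the data, technical array 1 of replicate 1 left out.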

Additional observations from a re-analysis of the deposited data

Results flagged for a closer look

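Differences in response between strains were looked up only for the genes of the asparagine and nitrogen lists named above. Apart from ASP1, these were named for large differences in these data. Of them, 4 differed by limma's test of strain and time together, with p values adjusted over 5443 genes. The share of all genes that passed this test is not given here, so nothing is read from the count. In hog1del against HOG1-GFP the response was larger by 1.33 on the log2 scale for DIP5 (limma, adjusted p = 0.0136), by 1.39 for PUT1 (adjusted p = 0.0035), by 1.25 for GLN1 (adjusted p = 0.0206) and by 1.14 for UGA3 (adjusted p = 0.0213). DIP5 changed by −0.34, −0.74 and −0.57 in HOG1-GFP and by 1.22, 0.54 and 0.57 in hog1del, so all 3 replicates moved in opposite directions. In HOG1-CCAAX against HOG1-GFP the response of PUT1 was larger by 1.12 (limma, adjusted p = 0.0370), which did not pass without technical array 1 (1.05, adjusted p = 0.0988 by limma), while the other 4 did. None of these 5 differences passed without replicate 2 or without replicate 3 (adjusted p from 0.2403 to 0.9997 by limma). All 5 passed without replicate 1, where the fit holds equally few samples (adjusted p from 7.0e-04 to 0.0036 by limma). The cause of this was not tested. Both comparisons share the HOG1-GFP samples.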

How the results depend on the processing

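Over 10 alternatives, the 12 rises of the ASP3 probes kept their direction and passed in 116 of 120 cases, and the other 4 are the losses given above when a replicate was left out. The responses of YLR156W, YLR159W and YLR161W were on the other side of the threshold in 9 of 90 cases. YLR161W was also called lower after quantile normalization in HOG1-GFP (adjusted p = 0.0372 by limma) and HOG1-CCAAX (0.0319), and after median centring in HOG1-CCAAX (0.0333). With the replicate block 5 rather than 4 members were called in each strain, and the block changed no other member's call. Without a replicate, the members called numbered 2 to 7 in HOG1-GFP, with 7 without replicate 1 and 2 without replicate 3.

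Counts over all genes moved more. Without a replicate, the responses gave 1107 to 3961 calls in HOG1-GFP, 1225 to 4178 in hog1del and 1411 to 4218 in HOG1-CCAAX, beside 2545, 2880 and 2948. For hog1del against HOG1-GFP, HOG1-CCAAX against HOG1-GFP and HOG1-CCAAX against hog1del, the calls at 0 min were 51, 15 and 15, ran from 10 to 83, 6 to 33 and 7 to 37 without a replicate, and were 4, 0 and 2 without the replicate block. At 60 min they were 1480, 619 and 609, ran from 388 to 2067, 122 to 985 and 84 to 1392, and were 436, 106 and 50 without the block. For HOG1-CCAAX against HOG1-GFP at 0 min, 8 genes were called after quantile normalization and 7 with the median of technical arrays. The shifts without a replicate went both ways, although each such fit holds equally few samples. The response of HOG1-GFP gave 3961 calls without replicate 1, 1186 without replicate 2 and 1107 without replicate 3. HOG1-CCAAX against hog1del at 60 min gave 1392, 84 and 90 in that order. The cause of the shifts was not tested.

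The median member difference of hog1del from HOG1-GFP at 60 min was 1.39 after quantile normalization, beside 1.29. ASP1's strain differences, none of which passed, changed sign in 5 cases. Without a replicate they ran from −0.14 to 0.17 for hog1del against HOG1-GFP, from −0.05 to 0.10 for HOG1-CCAAX against HOG1-GFP and from −0.16 to 0.25 for HOG1-CCAAX against hog1del at 0 min. For HOG1-CCAAX against HOG1-GFP the difference was 0.00 at 0 min without technical array 1, and 0.03 at 60 min after quantile normalization. The near-identical copies, the 3 replicates per group and an unknown background correction limit what single probes can show.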
